A study of Rattus norvegicus with 90 samples.

Results

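The kidneys of rats killed 8 h after a single dose of thioacetamide were compared directly between the high dose of 100 mg/kg and the low dose of 25 mg/kg. The members were the samples labelled kidney, 8 h, and high or low dose, which gave 5 and 5 samples, 10 of the 90 in the series. Besides kidney, the series covers liver and heart, each at 8 and 24 h, with 5 vehicle, 5 low-dose, and 5 high-dose samples per organ and time. All rats were male Sprague-Dawley animals, bought at 10 weeks of age, with a catheter placed in the right jugular vein 7 days before the study. Rats of the 8 h groups received thioacetamide or the vehicle (3 ml/kg saline) intraperitoneally in the morning and then had water but no food until the tissue was taken, so vehicle rats shared the fast and the surgery. Rats of the 24 h groups were dosed in the evening and had food until the last hours, so dosing clock time and feeding also separate the 2 times. Each kidney sample was powdered from the frozen whole organ, and the comparison gives no cell type of its own.

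Thioacetamide is a compound that is not toxic itself but is oxidized in the body to reactive S-oxides, which bind proteins and lipids. It is best known as a liver toxicant, and it also injures the kidney, whose proximal tubule carries enzymes that oxidize foreign compounds. A comparison of the doses with each other asks which transcripts separate the 2 exposures, whereas a comparison with vehicle asks which ones any exposure moved. In whole-organ RNA, fewer cells of a type and less RNA per cell cannot be told apart.

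At 8 h, a small set of transcripts separated the doses, and most of it was higher after the high dose. Of 18611 transcripts tested, 57 passed both criteria, which is 0.306%. Of these, 48 (0.258% of those tested) were higher and 9 (0.0484%) were lower after the high dose than after the low dose. A transcript was called where edgeR's quasi-likelihood test, with Benjamini-Hochberg adjustment, gave an adjusted p at or below 0.01 and where its natural-log fold change reached 0.60 in size (0.866 as a log2 value). At an unadjusted p-value below 0.05, 2976 transcripts passed, and without the limit on the fold change 82 passed at the adjusted level, 65 higher and 17 lower. The number of the library in the sample title, above 90 or not, entered the fit as a term, because 3 high-dose libraries but 1 low-dose library have such numbers.

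The deposited tables give each transcript an Ensembl identifier and no gene. None of the 57 identifiers was matched in the rat gene table used here, so no gene names, pathways, or cell type markers are given, and the kidney label was not checked against markers. Transcripts of 1 gene share reads, and 2 of the 57 had the same values as each other in every kidney sample at 8 h, so the 57 hold 56 distinct sets of values.

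Depth overlapped between the doses. Total estimated counts ranged from 19170863 to 24877737 in the high-dose libraries and from 21951114 to 30292593 in the low-dose ones. An exact two-sided permutation test of the means gave p = 0.0556 (adjusted p = 0.167 over 3 measures), where 0.00794 is the smallest p-value that 5 against 5 samples allow. Between 24160 and 24835 transcripts had a count above 0 after the high dose and between 24017 and 25156 after the low dose (exact permutation p = 0.841, adjusted p = 0.841). The tables also list genomic intervals, which took from 7.84% to 16.5% and from 7.22% to 15.3% of the counts, respectively (exact permutation p = 0.373, adjusted p = 0.56). Tested apart from the transcripts, 82 of 10530 intervals (0.779%) were called between the doses, 60 higher (0.57%) and 22 lower (0.209%). No pair among the 15 kidney libraries at 8 h resembled a repeat of 1 library. In the closest pair, 3.42% of the transcripts with at least 10 counts lay within 1 count of each other.

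Higher transcripts ranged from 1.87-fold to 25.8-fold, with a median of 2.69-fold (log2 fold change of 1.43). A change of at least 4-fold was seen for 13 of the 48, 29 changed by 2-fold to 4-fold, and 6 by less than 2-fold. Lower transcripts were 2.04-fold to 4.32-fold lower, with a median of 2.45-fold. Median standard errors on the log2 scale were 0.155 for the higher and 0.162 for the lower transcripts, beside 0.169 for all transcripts tested. The median log2 fold change over all transcripts tested was -0.00430.

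**Figure D1:**
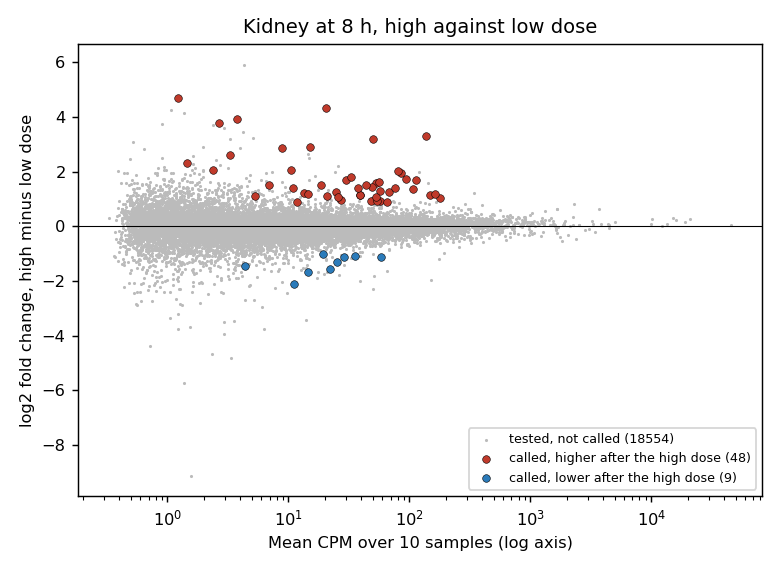
The log2 fold change between the high and low dose in the kidney at 8 h (y axis) is plotted against the mean normalised read count (CPM, estimated counts scaled to the library total) over the 10 samples (x axis, log scale), with 1 point per transcript tested. The 48 higher called transcripts (red) reach 4.69 and the 9 lower ones (blue) reach -2.11 on the log2 scale, and some of the 18554 uncalled transcripts (grey) lie further out.

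Called transcripts had a higher median abundance than all transcripts tested, although the most abundant transcripts were not among them. The 48 higher transcripts had a median of 38.2 CPM over the 10 samples, with quartiles at 12.99 and 59.6, beside a median of 12.5 and quartiles at 3.14 and 38.98 for all transcripts tested. The 9 lower transcripts had a median of 21.95 CPM. Median target length was 2111 bases for the higher transcripts and 2145 bases for all tested. The lower transcripts had a median length of 3946 bases, but they ran from 732 to 11622 bases. Whether these differences exceed those of other sets of transcripts was not tested.

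The groups did not overlap for any of the 57 transcripts. Among all transcripts tested, 3.31% had every high-dose sample above every low-dose sample and 2.42% had every one below. Because the test selects transcripts with little spread, this separation describes the called set and supports nothing further.

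The transcript with the largest rise that met the rule for naming was ENSRNOT00000010712, which is 1589 bases long. With the high dose it had 48.6, 30.7, 49.6, 43.9, and 25.0 CPM in the 5 samples, against 1.60, 1.78, 1.73, 1.47, and 2.53 CPM with the low dose. Vehicle samples had 1.72, 1.26, 0.978, 1.38, and 1.23 CPM. All high-dose samples stood far above the other 10, and the low-dose and vehicle samples overlapped. Between the doses, the log2 fold change was 4.35 (SE 0.235, adjusted p = 1.73e-05 in edgeR's test). Against vehicle, the log2 fold change was 4.86 for the high dose (SE 0.257, adjusted p = 8.27e-06, edgeR) and 0.43 for the low dose (SE 0.229, adjusted p = 0.4, edgeR). The first of these comparisons shares its high-dose samples with the direct one and the second its low-dose samples.

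ENSRNOT00000091687, of 3633 bases, had the next largest rise. High-dose samples had 5.19, 4.71, 10.999, 10.4, and 4.25 CPM, and low-dose samples had 0.351, 0.339, 0.406, 0.285, and 0.455 CPM, which are only 7 to 11 estimated counts each. It was listed at 0 in 1 vehicle sample, where a count of 0 allows up to 0.154 CPM (3 counts, for counting error only), and the other 4 had between 0.153 and 0.524 CPM. Low-dose and vehicle samples again overlapped, and every high-dose sample was above both. The difference between the doses was 3.93 on the log2 scale (SE 0.301, adjusted p = 0.000187, edgeR). On log2(TPM + 1), where TPM is the abundance scaled by target length and library, limma gave 1.25 with an adjusted p of 0.0118, and the call was lost on that scale, which compresses changes of low values. Both rises were called whichever of the 10 samples was left out.

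The 2 transcripts with the largest fall from the low to the high dose were not lower than vehicle after the high dose. ENSRNOT00000013661, of 894 bases, had 19.8, 18.97, 15.1, 9.09, and 25.4 CPM with the low dose and 4.11, 4.41, 7.68, 3.94, and 3.46 CPM with the high dose. Vehicle samples had 1.07, 1.10, 0.926, 0.974, and 1.53 CPM. The 3 groups did not overlap, and the low dose stood highest, the high dose between, and vehicle lowest. From the low to the high dose, the log2 fold change was -2.11 (SE 0.275, adjusted p = 0.0054, edgeR), that of the low dose against vehicle was 3.92 (SE 0.277, adjusted p = 0.000192), and that of the high dose against vehicle was 1.93 (SE 0.286, adjusted p = 0.0045).

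ENSRNOT00000041456, of 732 bases, had 26.6, 16.8, 24.9, 16.5, and 27.6 CPM with the low dose, beside 7.42, 7.39, 7.90, 4.599, and 8.06 CPM with the high dose. Vehicle samples had 3.63, 2.31, 3.65, 1.58, and 3.44 CPM. Here too the 3 groups were apart, in the order low dose, high dose, vehicle. The difference between the doses was -1.66 on the log2 scale (SE 0.220, adjusted p = 0.00613, edgeR), and it was 2.91 for the low dose against vehicle (SE 0.278, adjusted p = 0.0011). For the high dose against vehicle it was 1.40 (SE 0.282), with an adjusted p of 0.0203, which missed the threshold. Both falls depended on which samples were in the fit, since each was called in 3 of the 10 fits that left out 1 sample, while the log2 fold change stayed between -2.23 and -2.03 for the first and between -1.76 and -1.42 for the second.

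**Figure D2:**
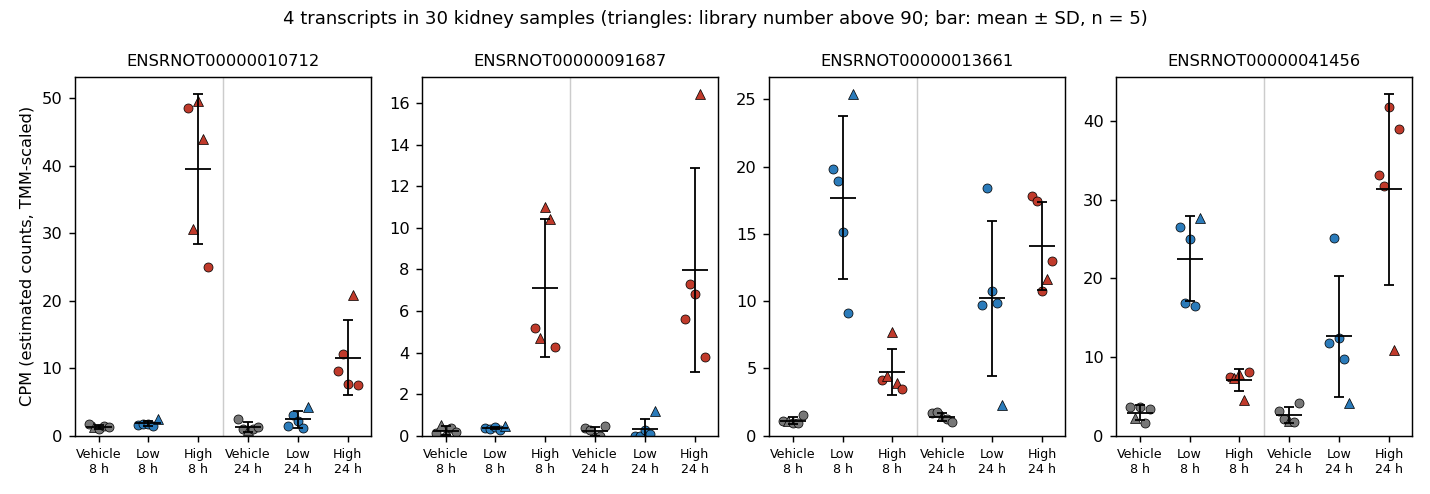
CPM (y axis, linear, a separate scale per panel) of 4 transcripts in the 30 kidney samples, by dose and time (x axis), with 1 point per sample, the mean, and an error bar of 1 SD (n = 5 per group); triangles are libraries numbered above 90. The first 2 panels show transcripts whose high-dose samples stand above all vehicle and low-dose samples at each time, and the last 2 show transcripts that stand highest with the low dose at 8 h and are above vehicle with both doses.

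Across the 48 higher transcripts, the low dose usually lay between vehicle and the high dose. The vehicle mean was below both dose means for 44 of them, between the doses for 3, and above both for 1. Leaving out 1 vehicle sample at a time gave from 43 to 45 with the vehicle mean below both doses. In the fit of the low dose against vehicle, which called 64 of 18829 transcripts (0.34%), 41 of the 45 tested had a log2 fold change above 0, with a median of 0.41, and 8 reached 1 or more. Of these 45, 7 were called higher after the low dose, and leaving out 1 sample at a time gave from 3 to 5. Over all transcripts tested in that comparison, 0.239% were called higher. Every low-dose sample was above every vehicle sample for 16 of the 48, beside 3.51% of all transcripts. In the fit of the high dose against vehicle, which called 216 of 18597 transcripts (1.16%), all 48 had a log2 fold change above 0, with a median of 1.93, and 42 were called. Over all transcripts tested there, 0.887% were called higher. For 47 of the 48 every high-dose sample was above every vehicle sample, beside 5.28% of all transcripts. Because each of these fits shares a dose group with the direct comparison, the values are given side by side and no agreement between them is drawn.

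Sample by sample, the medians over the higher called transcripts lay close together within the low-dose group. The median over the 48 transcripts of the log2 ratio to the vehicle mean, each with 0.1 CPM added, was 0.41, 0.48, 0.41, 0.37, and 0.44 in the low-dose samples and 1.80, 2.002, 2.11, 1.99, and 2.04 in the high-dose samples. Vehicle samples lay between -0.16 and 0.02. Each of the 48 was called with all high-dose samples above all low-dose samples. A shift in every sample was thus fixed by the choice of transcripts, and the values describe its size alone. The test also selects transcripts with little spread within a group, so the closeness of the samples partly follows from that choice. Together the 48 transcripts took between 3174 and 3683 CPM with the high dose, between 1173 and 1302 CPM with the low dose, and between 693 and 956 CPM with vehicle.

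The 9 lower transcripts were a mixed set. Vehicle means were below both doses for 4 of them, between the doses for 2, and above both for 3. In 4 of the 9, including the 2 named, the log2 fold change of the low dose against vehicle was 1 or more, and 3 of the 9 were called higher after the low dose than with vehicle, beside 0.239% of all transcripts. None was called lower by edgeR, beside 0.101%, and 5 of the 9 had an unadjusted p below 0.05, beside 16.8%. Of the 9, 2 were called lower after the high dose than with vehicle, beside 0.274% of all transcripts, and 1, the first fall named above, was called higher, beside 0.887%. The lower set thus holds transcripts that stood above vehicle after the low dose, and others that stood below vehicle after the high dose. Without each vehicle sample in turn, the vehicle mean lay below both doses for 3 or 4 of the 9 and above both for 1 to 3.

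**Figure D3:**
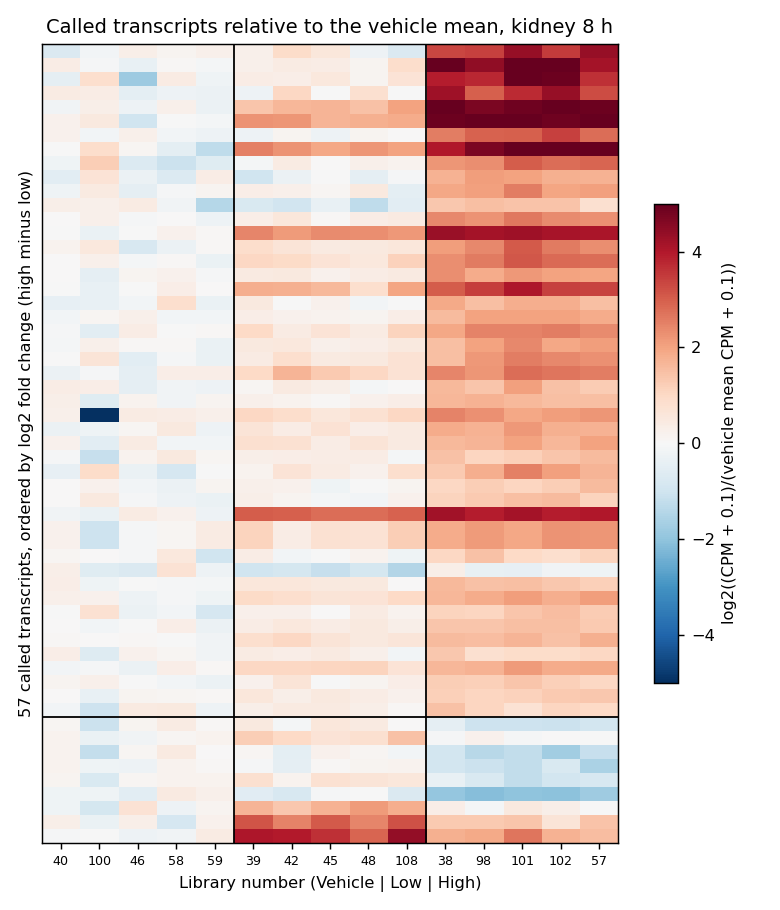
Each row is 1 of the 57 called transcripts, ordered from the largest rise to the largest fall (horizontal line between rises and falls), and each column is 1 of the 15 kidney samples at 8 h, marked by library number and grouped as vehicle, low dose, and high dose. Colour is log2((CPM + 0.1)/(vehicle mean CPM + 0.1)), saturated at -5 and 5. The high-dose columns are redder than the low-dose columns in all 48 upper rows, and the last 2 rows are reddest in the low-dose columns.

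On each side of the library number the called differences kept their direction, as the lack of overlap between the groups all but required. With the 6 libraries numbered up to 90 alone (2 high-dose and 4 low-dose), all 48 higher and all 9 lower transcripts kept their direction, with median log2 fold changes of 1.43 and -1.17, and 10 of the 48 were called. With the 4 libraries above 90 alone (3 high-dose and 1 low-dose), the direction again held for all 57, with medians of 1.52 and -1.36. In that fit edgeR called none of 19804 transcripts and 2692 had an unadjusted p below 0.05. It rests on 1 low-dose library, which is assumed to vary like the others. All 10 samples also took part in the calls, so neither split is independent of them. The kept direction therefore supports nothing further, and the splits describe the size of the differences alone.

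How many transcripts were called depended on single libraries. Leaving out 1 sample at a time gave from 20 to 92 calls (samples are numbered in the order in which their values are listed above). Without low-dose sample 2 there were 92 (58 higher and 34 lower), with all 57 among them. Without low-dose samples 3 and 4 there were 35 each, and without low-dose sample 5, the only one with a library number above 90, there were 20. In that last fit the library number term takes up the 3 high-dose libraries numbered above 90. The estimated difference then rests on 2 high-dose and 4 low-dose libraries, so this count does not reflect 1 library alone. Without high-dose samples 1, 2, 4, and 5 the counts were 31, 33, 32, and 28. Of the 48 higher transcripts, 19 were called in all 10 of these fits, 12 in 5 to 9 of them, and 17 in 1 to 4. None of the 9 lower transcripts was called in all 10, 2 were called in 5 to 9, and 7 in 1 to 4.

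At 24 h, in other rats, the same contrast called 153 of 18844 transcripts, 0.812%. All 48 transcripts that were higher after the high dose at 8 h had a log2 fold change above 0 at 24 h, with a median of 1.30, whereas 50.2% of the 18292 transcripts tested at both times did. Of the 48, 25 were called higher at 24 h, beside 0.563% of all transcripts tested at that time. For 32 of the 48 the high-dose samples at 24 h were all above the low-dose samples, beside 2.58% of all transcripts. Of the 9 lower transcripts, 7 had a log2 fold change below 0 at 24 h, with a median of -0.19, and 1 was called lower, beside 0.249% of all tested.

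The number of calls at 24 h again turned on single libraries. Leaving out each of the 10 samples gave from 8 to 29 of the 48, with all 48 above 0 in every such fit. The 8 came without high-dose sample 4 of that time and the 29 without low-dose sample 2 (library 35). Without low-dose samples 1, 3, 4, and 5 there were 10, 16, 15, and 9, and without high-dose samples 1 and 2 there were 16 each. High-dose sample 4 and low-dose sample 5 are the only ones of these 10 numbered above 90. Without either, the library number term takes up the other, so both fits rest on the same libraries numbered up to 90. Calls over all transcripts were 33 without high-dose sample 4 and 284 without low-dose sample 2. DESeq2 called 31 of the 48 and 392 transcripts in all (2.08%).

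Both named falls had a log2 fold change above 0 at 24 h, and edgeR called neither there when all 10 samples were used. ENSRNOT00000013661 had between 2.25 and 18.4 CPM with the low dose at 24 h and between 10.8 and 17.8 CPM with the high dose, so that the groups overlapped and the log2 fold change was 0.65 (SE 0.333, adjusted p = 0.297, edgeR). ENSRNOT00000041456 had between 4.17 and 25.1 CPM with the low dose and between 10.9 and 41.8 CPM with the high dose, and its log2 fold change was 1.34 (SE 0.246, adjusted p = 0.0156, edgeR). DESeq2 called it higher after the high dose at 24 h (1.33, adjusted p = 5.67e-06), as did edgeR without low-dose sample 2 (1.64, SE 0.141, adjusted p = 0.000422). ENSRNOT00000013661 was called by neither (adjusted p = 0.208 and 0.105). Both transcripts had their lowest low-dose value at 24 h in sample 5, the only one of that group with a library number above 90. The difference at 8 h minus that at 24 h was -2.34 (SE 0.544, adjusted p = 0.0722) and -2.77 (SE 0.489, adjusted p = 0.0259) on the log2 scale, and neither passed the threshold in edgeR's interaction test.

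Both rises were called at 24 h too. ENSRNOT00000010712 had between 1.11 and 4.24 CPM with the low dose and between 7.57 and 20.9 CPM with the high dose at 24 h, a log2 fold change of 2.27 (SE 0.275, adjusted p = 0.00254, edgeR). Its difference at 8 h minus that at 24 h was 1.95 (SE 0.385, adjusted p = 0.0369, edgeR), larger at 8 h but short of the threshold. ENSRNOT00000091687 had up to 1.19 CPM with the low dose and was listed at 0 in 2 of those samples, where a count of 0 allows up to 0.148 and 0.182 CPM. Its high-dose samples had between 3.78 and 16.4 CPM, and the log2 fold change was 5.21 (SE 0.641, adjusted p = 0.00263, edgeR). On the same scale, the difference between the times was -1.31 (SE 0.774, adjusted p = 0.51, edgeR).

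Tested directly, the difference between the doses itself differed between 8 and 24 h for 7 of 19849 transcripts (0.0353%) in edgeR's interaction test, called at an adjusted p of 0.01 or less. None of the 57 was among the 7, although 25 of the 48 higher and 7 of the 9 lower had an unadjusted p below 0.05 there, beside 12.5% of all transcripts tested. DESeq2 called 147 transcripts in this test (0.741%), among them 8 of the 48 and 3 of the 9. For all 11 of these the called difference had the sign of the difference at 8 h. Without low-dose library 35 at 24 h, edgeR called 77 transcripts, 2 of them among the 57.

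**Figure D4:**
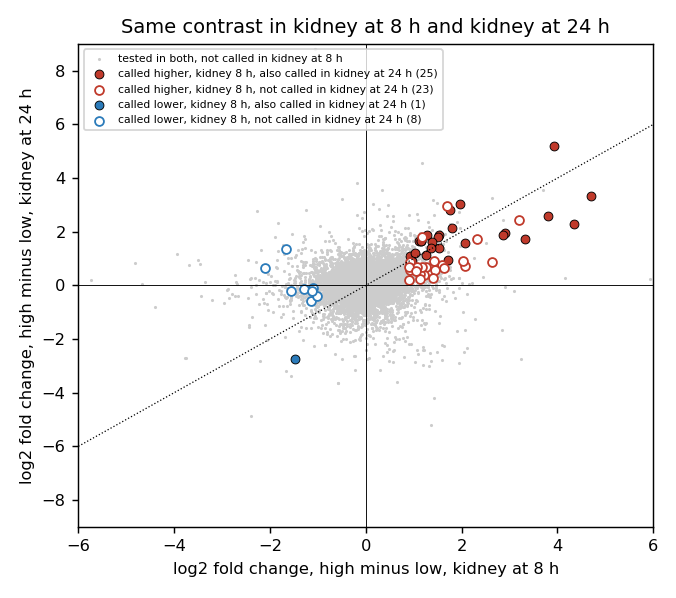
The log2 fold change between the high and low dose in the kidney at 8 h (x axis) is set against that at 24 h in other rats (y axis), with 1 point per transcript tested at both times and a dotted line of equality; 1 uncalled transcript lies outside the axes. All 48 transcripts called higher at 8 h (red) are above 0 at 24 h, 25 of them called (filled), and 2 of the 9 called lower at 8 h (blue) are above 0 at 24 h.

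Liver at 8 h gave the contrast in a second organ, by the study's design in the same rats, although the labels do not tie organs to rats, so the tests between the organs have no term for the rat. One of its low-dose libraries, number 9, stands apart. Of 15797 transcripts with at least 10 counts, 99.96% lay within 1 count of those in library 1, a vehicle liver at 24 h, while the next closest of 4005 pairs of libraries reached 3.82%. The liver contrast is therefore given with and without library 9. Low-dose library 94 is the only one of these 10 numbered above 90, so the library number term takes it up alone and it does not bear on the estimated difference between the doses. With library 9, 222 of 16818 transcripts were called (1.32%), and without library 9, 318 of 17220 (1.85%).

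All 48 higher kidney transcripts had a log2 fold change above 0 in the liver, with and without library 9, beside 50.1% of 15801 transcripts tested in both organs. Median log2 fold changes were 1.58 with it and 1.88 without it. Called higher in the liver were 26 of the 48 with library 9 and 37 without it, beside 0.951% and 1.42% of all transcripts. With library 9 kept, leaving out another liver sample gave from 0 to 35 of the 48. The 0 was reached without low-dose libraries 12, 15, and 18 and without high-dose library 11, where edgeR called 0, 0, 9, and 12 transcripts in all. In the first 2 of these fits 3964 and 4009 transcripts had an unadjusted p below 0.05. The values without high-dose libraries 14, 17, and 27 were 5, 10, and 3 of the 48, and that without library 8 was 35. With library 9 left out as well, the range was 1 to 42 of the 48. Then 1, 1, 2, and 37 were called without low-dose libraries 12, 15, 18, and 94, and 42, 16, 34, 30, and 24 without high-dose libraries 8, 11, 14, 17, and 27. All 48 were above 0 in each of these fits. An unadjusted p below 0.05 was found for 47 of the 48 with and without library 9, beside 27.7% and 28% of all transcripts tested. DESeq2 called 46 of the 48 with library 9, beside 4.54% of all transcripts, and 47 without it, beside 5.81%.

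Lower kidney transcripts did not share a direction in the liver. Of the 6 tested there, 3 were below 0 and none was called by edgeR or DESeq2, beside 1.32% and 4.54% of all transcripts. In edgeR's test 3 of the 6 had an unadjusted p below 0.05, beside 27.7%. Without library 9, 4 of 7 were below 0. Then edgeR called none, beside 1.85%, and DESeq2 called 1 lower, beside 1.59% called lower. In edgeR's test 3 of the 7 had an unadjusted p below 0.05, beside 28%.

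In edgeR's test of the difference between the organs, 66 of 19866 transcripts (0.332%) were called, and 120 of 20222 (0.593%) without library 9. None of the 48 higher kidney transcripts was called in either fit. With library 9, 13 of the 48 had an unadjusted p below 0.05, beside 17.6% of all transcripts. DESeq2 called 4, beside 2.93%, all 4 with the larger difference in the kidney. Without it, 20 had such a p-value, beside 18.1%. DESeq2 then called 8, beside 3.76%, of which 2 had the larger difference in the kidney and the rest in the liver. Of the 9 lower transcripts 3 were called, with library 9 and without it, each with a more negative value in the kidney than in the liver, beside 0.151% of all transcripts with library 9. Over the fits that left out 1 of the 20 samples, from 0 to 3 of the 9 were called.

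One of the 3 was ENSRNOT00000041456, with a difference of -1.81 on the log2 scale (SE 0.295, adjusted p = 0.00566, edgeR) and of -1.87 without library 9 (SE 0.315, adjusted p = 0.00486). Its liver TPM at 8 h was between 1.38 and 5.23 with vehicle, between 17.9 and 33.6 after the low dose with or without library 9, and between 19.2 and 31.7 after the high dose. The dose groups overlapped in the liver, and both were above vehicle. In the kidney, its TPM was between 2.67 and 6.50 with vehicle, between 30.1 and 49.95 with the low dose, and between 7.56 and 13.6 with the high dose. All 15 hearts at 8 h had between 1.61 and 5.62 TPM, and their groups overlapped.

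ENSRNOT00000010712 separated the doses in the liver as well, with a log2 fold change of 3.19 (SE 0.564, adjusted p = 0.00994, edgeR) and of 4.12 without library 9 (SE 0.359, adjusted p = 0.00152). Its TPM in the liver at 8 h was between 0.0982 and 0.725 with vehicle, between 2.98 and 23.5 with the low dose, and between 47.5 and 96.5 with the high dose. Without library 9, the low-dose livers reached 6.21 TPM. In the kidney at 8 h the ranges were 0.61 to 1.25, 1.12 to 1.76, and 16.1 to 35.8 TPM, respectively. Heart samples at 8 h had medians of 0.877, 1.55, and 2.01 TPM with vehicle, low dose, and high dose, and the low-dose and high-dose values overlapped.

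ENSRNOT00000091687 had medians of 0.0351 TPM with vehicle, 0.215 with the low dose (0.196 without library 9), and 1.05 in the high-dose livers at 8 h, and its log2 fold change between the doses was 2.28 (SE 0.641, adjusted p = 0.0466, edgeR), and 2.80 without library 9 (SE 0.691, adjusted p = 0.0336). Neither passed the threshold. In the heart at 8 h its median was at most 0.132 TPM in each group. ENSRNOT00000013661 was too low in the liver to be tested between the doses, with medians of 0, 0.762, and 0.2 TPM in vehicle, low-dose, and high-dose livers, and of 0.699 in the low-dose livers without library 9. In the heart at 8 h its medians were 16.6, 21.2, and 21.1 TPM, above those of the vehicle kidneys, and the 3 groups overlapped.

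**Figure D5:**
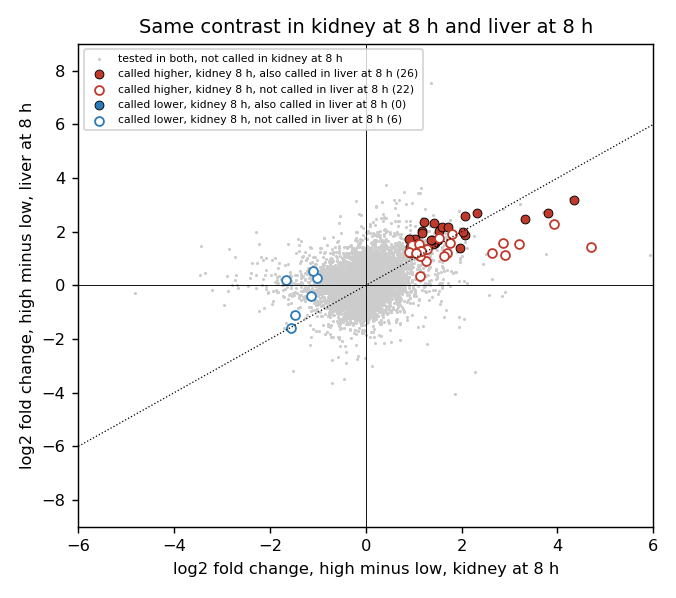
The log2 fold change between the high and low dose at 8 h in the kidney (x axis) is set against that in the liver (y axis, all 10 liver libraries), with 1 point per transcript tested in both organs and a dotted line of equality; 1 uncalled transcript lies outside the axes. All 48 transcripts called higher in the kidney (red) are above 0 in the liver, 26 of them called (filled), while the 6 tested of those called lower (blue) lie on both sides of 0.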

How the data were processed

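The authors sequenced poly-A-enriched, stranded libraries and quantified the read pairs with Kallisto (version 0.42.2 per the submitters' processing notes) against the Ensembl rat transcriptome (Rnor_6.0). The deposited estimated counts need not be whole numbers and are not normalized. The deposited TPM values are scaled by target length and library. The tables list 40071 transcripts and 25095 genomic intervals, and the tests used the transcripts. Kallisto divides reads that fit several transcripts among them, so values of transcripts of 1 gene are not independent.

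Rounded estimated counts were tested in R 4.3.3 with edgeR 4.0.16 (default filter on low counts, TMM scaling, quasi-likelihood test, and Benjamini-Hochberg adjustment over all transcripts tested), and the library number (90 or less, or higher) was a term in each fit. The filter left out 21460 transcripts. The thresholds, an adjusted p-value of 0.01 and a natural-log fold change of 0.60, are taken from the study, which applied them per gene to another effect size. Differences between times and organs were tested as interactions over 20 samples, with the adjusted limit of 0.01 and no fold limit. CPM values shown were scaled by TMM over the 30 kidney libraries. The p-values measure the spread between samples that the study describes as 5 rats per group. The script was tested on simulated counts.

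Alternatives were DESeq2 1.42.0, limma 3.58.1 on TPM (log2, with a pseudocount of 1 or 0.1), other filters (none, or at least 5 counts in 47% of the samples) and size factors, no library number term, all 15 kidney samples in one fit, intervals in the fit or as a covariate, no fold limit, libraries numbered up to 90 alone, and leaving out each sample. Libraries above 90 alone, DESeq2 and further samples left out without liver library 9, and the alternatives for the intervals, were chosen after seeing the data. Named transcripts are the 2 called ones that rose most and the 2 that fell most, given a mean of 2 CPM or more and no overlap between the groups, which 46 higher and 9 lower ones met. The samples and lists were chosen with earlier results of these data known. Gene and marker lists were not applied, since no table used here pairs the transcripts with genes. Exact tests used Python 3.11.15 with scipy 1.17.1, numpy 2.4.6, and pandas 2.3.3, and plots matplotlib 3.10.9.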

Additional observations from a re-analysis of the deposited data

Results flagged for a closer look

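The genomic intervals lie outside the comparison of transcripts, and 82 of the 10530 tested (0.779%) were called between the high and low dose in the kidney at 8 h by edgeR, 60 higher and 22 lower. Among the higher ones, chr20:13658444-13662366 and AABR07024104.1:11481-15403 had the same fold change, group means, and ranges as each other, so the 82 are not all distinct. Here the low dose served as the reference, and vehicle values are given beside it. Interval CPM are scaled to the counts on intervals alone, so they cannot be set beside the CPM of transcripts. The interval with the largest rise, chr4:85175452-85177228 (Rnor_6.0, coordinates as in the interval's name, 1777 bases), had 8.10 ± 2.13 CPM with the high dose, 0.367 ± 0.512 with the low dose, and 0.385 ± 0.248 with vehicle (SD, n = 5), a log2 fold change of 4.07 (SE 0.576, adjusted p = 0.00179, edgeR). The one with the largest fall, chr15:103957565-103977564 (20000 bases), had 9.88 ± 3.95, 66.1 ± 17.01, and 5.90 ± 1.98 CPM, respectively, a log2 fold change of -2.79 (SE 0.275, adjusted p = 0.000165, edgeR). Both were chosen after their values were seen, and no annotation of this build was used to say what lies in them. Their high-dose and low-dose samples did not overlap. For the interval on chromosome 4, the low-dose samples ran from 0 to 1.05 CPM, so its rise starts near the floor of counting.

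The difference between the doses differed between 8 and 24 h for 7 transcripts and between kidney and liver for 66 by edgeR's interaction tests. ENSRNOT00000041456 was among the latter, with a kidney minus liver difference of -1.81 on the log2 scale.

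Of 33 sets of 5 values examined, 4 held a sample farther from the others than expected, and chance gives about 1 in 20 such sets. For ENSRNOT00000091687 these were the highest values with the high dose (16.4 CPM) and the low dose (1.19 CPM) at 24 h. For ENSRNOT00000013661 it was the highest high-dose value at 8 h (7.68 CPM, sample 3), and for ENSRNOT00000041456 the lowest high-dose value at 8 h (4.599 CPM, sample 4). All 4 libraries have numbers above 90, and the part of the library number in these values was not tested.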

How the results depend on the processing

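Called differences kept their direction in the alternatives run for the 4 named transcripts, but the number of calls moved by over 1.5 times with DESeq2, without the library number term, within each range of library numbers, and on leaving out some single samples. In place of 57, DESeq2 called 158 (52 of them lower, all 57 among them), the fit without the library number term 90 (69 higher and 21 lower), libraries up to 90 alone 10, and libraries above 90 alone 0, with 2692 at an unadjusted p below 0.05. Leaving out 1 sample gave from 20 to 92 (without low-dose sample 2, 58 higher and 34 lower). In comparisons of 2 groups, a fit left with numbers above 90 in 1 group only has those libraries taken up by the library number term. Its estimated difference then rests on the remaining libraries. The filters, size factors, limma, the fit of all 15 samples, both uses of the intervals, and no fold limit gave from 40 to 82. Leaving out 1 sample gave from 117 to 187 for the high dose against vehicle (main 216, with 117 without high-dose sample 5) and from 28 to 47 for the low dose against vehicle (main 64, with 37, 41, 29, and 32 without vehicle samples 1, 2, 4, and 5, and 28, 38, 40, and 40 without low-dose samples 1, 3, 4, and 5), which had 41 calls without the library number term. For the kidney at 24 h (main 153) the range was 33 to 284, with 47, 284, 80, 55, and 35 without low-dose samples 1 to 5 and 69, 77, 33, and 64 without high-dose samples 1, 2, 4, and 5. There, the fit without the library number term called 72 and DESeq2 392 (214 higher and 178 lower). For the liver at 8 h (main 222) the range was 0 to 339, with 0, 0, and 9 without low-dose libraries 12, 15, and 18 (3964 and 4009 at an unadjusted p below 0.05 in the first 2) and 339, 12, 44, 64, and 41 without high-dose libraries 8, 11, 14, 17, and 27, and those 2 settings called 403 and 763. With library 9 left out too, leaving out 1 sample gave from 5 to 524 (5, 13, 12, and 318 without low-dose libraries 12, 15, 18, and 94, and 524, 97, 215, 192, and 163 without high-dose libraries 8, 11, 14, 17, and 27), and DESeq2 called 1001. For the difference between the times (main 7) the range was 2 to 77, with 77 without low-dose library 35 at 24 h and from 2 to 4 in the other fits that moved it by over 1.5 times, and DESeq2 called 147. For the difference between the organs (main 66) the range was 3 to 152, with 120, 3, 30, and 21 without low-dose liver libraries 9, 12, 15, and 18, 152, 25, and 38 without high-dose liver libraries 8, 11, and 27, 26, 126, 22, 24, and 24 without low-dose kidney samples 1 to 5, and 15, 25, 40, 35, and 16 without high-dose kidney samples 1 to 5. There, the fit without the library number term called 211 and DESeq2 583, or 761 without library 9. For the intervals (main 82), these called 149 and 164. Both named falls were lost with libraries up to 90 alone (adjusted p = 0.177 in each), and with those above 90 alone all 4 were lost (adjusted p from 0.13 to 0.208), fits with 6 and 4 samples. The cause was not tested. No paired analysis was possible because the labels number libraries and not replicates within a group, and do not tie organs to rats. Depth limits transcripts of few counts per library most, such as ENSRNOT00000091687 with vehicle or the low dose.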
